A study of Rattus norvegicus with 24 samples.

Results

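Rat chromosome 10 carried 6139 INO80 peaks, 6090 from cocaine and 49 from saline, of 74075 peaks over both lists. The members are all peaks that the deposited lists place on chromosome 10 of the assembly rn6. The chromosome itself was chosen by its measured peak density, which was the highest of the 20 autosomes in the cocaine list and, for sites of low input background, in the saline list. Density on chromosome 10 is therefore a description of how it was picked, and no test was run on it.

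The peaks come from ChIP-seq of the nucleus accumbens, the ventral striatal part of the reward circuit. The cocaine group consists of rats that had self-administered cocaine with extended access, with tissue taken 30 days afterwards, and the saline libraries carry the same protocol text. The sources used here do not give strain, age or sex. The 24 libraries fall into 4 groups of 6, ChIP and input DNA for each treatment, with 3 numbered samples of 2 runs each. The authors pooled the 3 ChIP samples of a treatment and called peaks against its 3 pooled inputs, which leaves 1 list per treatment and no replicate error. Depth is known for the pools only, 43489910 cocaine and 37905014 saline ChIP tags after filtering (ratio 1.15), with input pools of nearly equal depth (ratio 1.01). No difference between the lists, or between chromosomes, could be tested against the spread between animals, and every comparison given here is a description of these pools. The tissue was taken in bulk, so fewer cells with INO80 at a site and less INO80 per cell cannot be told apart.

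INO80 is the motor ATPase of a large remodelling complex that slides nucleosomes and spaces them around promoters, and that exchanges histone variants. The complex works at transcribed genes and also at replication forks and broken DNA. In brain tissue, where most neurons no longer divide, its role in transcription is the one most often considered. Rat chromosome 10 is a gene-rich chromosome whose long distal part is conserved with human chromosome 17. The lists name no genes and no annotation of rn6 was used here, so genes, exons and promoters at the coordinates below were not analysed, and no sequence is shown.

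Cocaine peaks were far denser on chromosome 10 than on the rest of the autosomes. The list held 54.1 peaks per Mb on chromosome 10, over a length of 112.6 Mb, and 24.9 per Mb on chromosomes 1 to 9 and 11 to 20, a ratio of 2.17. The peaks covered 0.753% of chromosome 10 and 0.335% of the others. Chromosome 12 came next with 46.3 peaks per Mb, and chromosome 2 was lowest with 16.2. The 3 autosomes nearest in length held between 17.9 and 21.96 peaks per Mb, namely chromosome 15 (17.9), chromosome 13 (19.8) and chromosome 14 (21.96). Chromosome 10 thus held 8.90% of all autosomal cocaine peaks, while each of these 3 held 3.70% or less. Joining peaks less than 500 bp apart, which lowers any count, gave 34.9 per Mb. Whether such close peaks are separate sites was not tested. The joined value was still the highest of the 20, ahead of 32.9 on chromosome 12.

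The saline list gave chromosome 10 an ordinary density over all peaks and the highest density over sites of low input background. Counting every saline peak, chromosome 10 had 0.435 per Mb and ranked 13 of 20, below the 0.887 of the other autosomes together. The input matters for this rank. The caller estimates a local input level at each peak, and a peak at 10 times the genome-wide level or more is called a deep-input peak from here on. Of all saline peaks 80.8% were deep-input peaks, and on chromosome 10 they were 3 of 49 (6.12%, Wilson 95% interval 2.10 to 16.5), the lowest share of any autosome. Without deep-input peaks chromosome 10 had 0.409 saline peaks per Mb and ranked first, ahead of chromosome 1 with 0.273 and against 0.153 for the other autosomes together. In the cocaine list the deep-input share was 3.52% over all peaks and 0.213% on chromosome 10 (13 of 6090, interval 0.125 to 0.365), again the lowest of the 20. These intervals reflect counting error alone and treat peaks as independent, which neighbours are not.

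**Figure D1:**
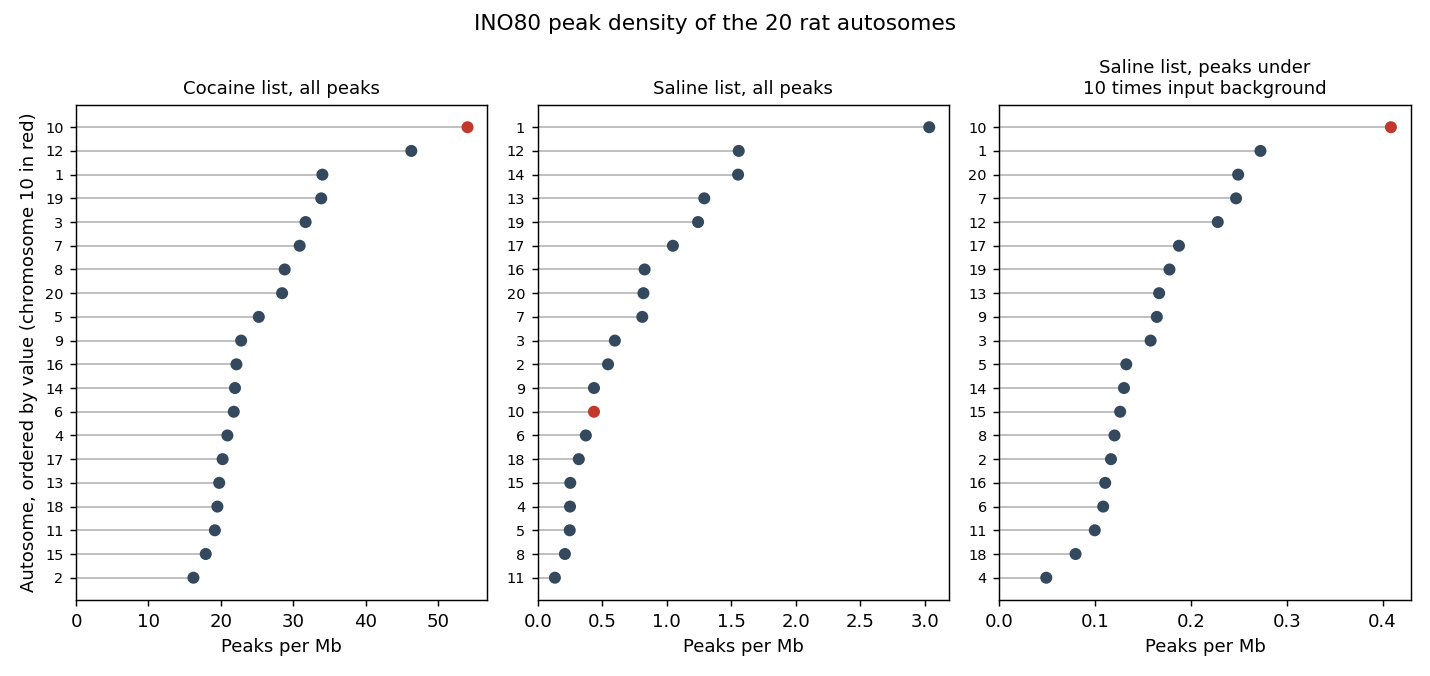
Peaks per Mb (x axis) for each of the 20 rat autosomes (y axis, ordered by value), in the cocaine list, the saline list, and the saline list without peaks at 10 times input background or more. Chromosome 10, in red, is first in the left panel (54.1 per Mb), rank 13 in the middle (0.435) and first on the right (0.409). Each point is 1 pooled list, so there are no error bars.

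The higher density of chromosome 10 ran through most of its windows and was not carried by a few extreme ones. Summits were counted in the 112 full windows of 1 Mb, starting at the first base. The 25th percentile of these windows was 12 summits, the median 35.5 and the 75th percentile 72.25. On the other autosomes the same 3 values were 4, 13 and 31. The densest window of chromosome 10 held 270 summits, close to the 286 of the densest window on any other autosome, which lay on chromosome 7. The tenth of windows with most summits held 36.1% of the peaks of chromosome 10, less than the 44.1% of the other autosomes together, and only chromosome 12 had a smaller share (29.7%). Chromosome 12 had a higher median window (40) than chromosome 10, with a much lower maximum (131).

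**Figure D2:**
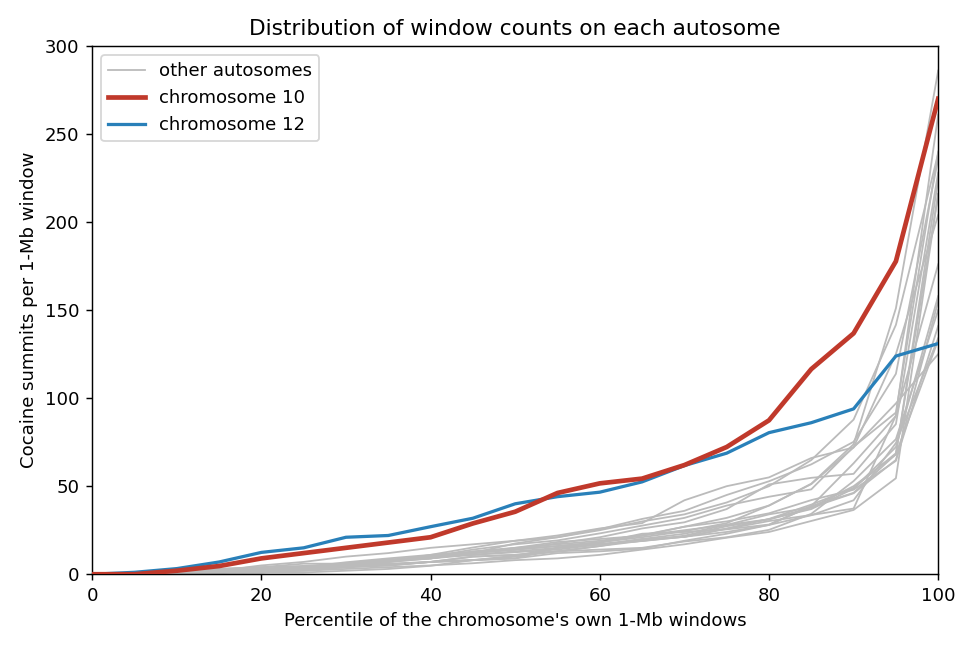
Cocaine summits per 1-Mb window (y axis) at each percentile of a chromosome's own windows (x axis), 1 line per autosome. Chromosome 10 (red) and chromosome 12 (blue) run above the other 18 from the 10th to the 90th percentile, with medians of 35.5 and 40, and at the top chromosome 10 reaches 270 and chromosome 12 only 131.

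A window is called dense here when it held at least 66 cocaine summits, the 90th percentile of all 2606 autosomal windows, and sparse when it held 1 or none, the 10th percentile. By these limits 10.1% of all autosomal windows were dense and 16.1% were sparse. On chromosome 10, 32 of 112 windows were dense (28.6%, interval 21.02 to 37.5) and 11 were sparse (9.82%, 5.57 to 16.7). Chromosome 12 had a similar share of dense windows (26.9%), while chromosomes 13, 14 and 15 had 5.31%, 9.57% and 6.31%. The 32 dense windows held 68.0% of the cocaine peaks of chromosome 10, against 42.1% in the dense windows of the other autosomes. The sparse count depended on where windows began and was 7 with windows shifted by 0.5 Mb.

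Peaks were unevenly placed along the chromosome, with quiet stretches near the start and a fuller distal part. Beyond the midpoint lay 61.6% of the cocaine peaks (3749, against 2341 before it). The first 10 Mb held 215 peaks, and no window there passed 44. The next 10 Mb held 773, most of them in 3 adjoining windows. The stretch from 20 to 30 Mb was the emptiest of its size, with 130 peaks, or 13 per Mb, below the average of the other autosomes. Counts rose again to 417 between 30 and 40 Mb, 520 between 40 and 50 Mb and 714 between 50 and 60 Mb. The fullest block was 80 to 90 Mb with 855 peaks (85.5 per Mb), and 60 to 70 Mb held 733. Between these lay a thinner block, 70 to 80 Mb, with 420. The last blocks held 510 (90 to 100 Mb) and 718 (100 to 110 Mb), and the final 2.565 Mb held 85. The first summit of the chromosome was at 1111 and the last at 112564959.

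**Figure D3:**
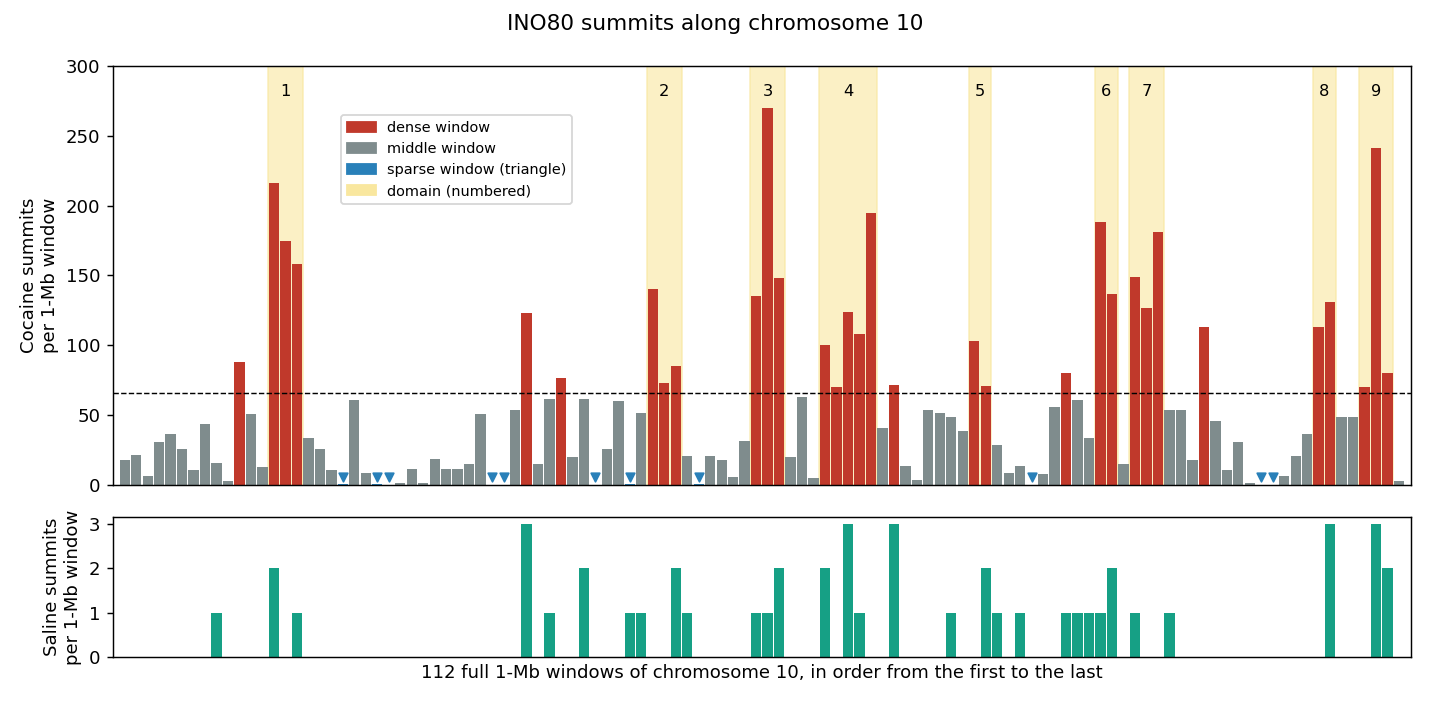
Summits per 1-Mb window of chromosome 10 in chromosome order (x axis), for the cocaine list (top, y axis 0 to 300) and the saline list (bottom, 0 to 3). Red bars are the 32 dense windows at or above 66 summits (dashed line), triangles mark the 11 sparse windows, and shading marks the 9 domains of 2 or more adjoining dense windows. Saline summits appear in 31 windows, with at most 3 in any of them.

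Dense windows adjoined one another in 9 runs of at least 2, called domains here. Domains took up 26 windows, 23.2% of those on the chromosome, and held 3588 cocaine peaks, 58.9% of its total. On the other autosomes 55 domains took up 5.93% of windows and held 28.5% of the peaks. Chromosome 10 had 7.995 domains per 100 Mb, the other autosomes 2.20, and chromosome 12 came next with 5.70. Its domains were not unusually long, with a median of 3 windows on chromosome 10 and over all 64 autosomal domains. Domain edges are window edges, and with 2-Mb windows 4 domains remained.

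The domain with most peaks was the fourth along the chromosome, 61000001 to 66000000 (all coordinates rn6, chromosome 10). It spanned 5 windows with 597 peaks, from 70 in its thinnest window to 195 in its last, and ranked 6 among all autosomal domains. Peaks in it had a median pileup of 20, which counts overlapping ChIP fragments at the summit, and a median fold over local input of 8.31. Pileup and fold are the authors' caller's values for each peak. The 3-window domain at 55000001 to 58000000 was more tightly packed, with 553 peaks, 184.3 per Mb. It contained the densest window of the chromosome, 56000001 to 57000000, whose 270 summits placed it 2nd of 2606 autosomal windows and whose peaks covered 4.38% of its bases. Neighbouring summits in this domain were a median of 568.5 bp apart, the closest spacing of the 9, and its median pileup (22) and fold (8.75) were the highest of them.

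The domain at 13000001 to 16000000 stood alone in the proximal part of the chromosome. Its 549 peaks made up 9.01% of the chromosome's total, in windows of 216, 175 and 158 summits. It covered the largest share of its own bases, 2.77%, although its median pileup (18) and fold (7.88) were lower than in any domain but the one at 46000001. A pair of domains lay close together at 85000001 to 87000000 (325 peaks) and 88000001 to 91000000 (457 peaks), parted by a window of 15 summits. The distal pair consisted of 104000001 to 106000000 (244 peaks) and 108000001 to 111000000 (391 peaks). The latter held the next densest window of the chromosome, 109000001 to 110000000, with 241 summits beside neighbours of 70 and 80. The domain at 46000001 to 49000000 held 298 peaks and had the lowest median fold (7.54). The domain with fewest peaks was 74000001 to 76000000, with 174.

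All 10 windows with most summits lay inside domains, which are defined by summit counts and held 26 of the 32 dense windows. After those of 270, 241 and 216 came 65000001 to 66000000 with 195 and 85000001 to 86000000 with 188. The others, with 148 to 181 summits, lay at 90000001, 14000001, 15000001, 88000001 and 57000001 by their first base. Of the 27 autosomal windows with most summits, 5 were on chromosome 10. The chromosome had 112 of the 2606 autosomal windows and was chosen for its density. Outside domains 6 dense windows stood singly, of which 35000001 to 36000000 was the fullest with 123 summits and a median fold of 9.55. The next were 94000001 to 95000000 with 113 and 10000001 to 11000000 with 88, and the remaining 3 held 72 to 80.

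Chromosome 10 also had long empty stretches. The 10 longest distances between neighbouring cocaine summits ran from 1.04 to 2.70 Mb and together took up 16.2 Mb, 14.4% of the chromosome. The longest ran from 22112392 to 24808320 (2.70 Mb), followed by 98793489 to 101289082 (2.50 Mb) and 31783683 to 34149400 (2.37 Mb). Next were 78992937 to 80790000 (1.797 Mb) and 40994956 to 42441860 (1.45 Mb). The other 5 were between 1.04 and 1.14 Mb and began at 18574619, 26003210, 59747785, 50441540 and 43781877. The one that ends at 34149400 lay just before the dense window at 35000001. Only 1 saline summit lay within the 10 stretches, at the deep-input site that also bounds the last of them at 44825283. No run of sparse windows on chromosome 10 was longer than 2, while the longest on another autosome, on chromosome 2, had 5. The longest distance of chromosome 10 ranked 10 of 20 among the autosomes' own longest distances, the highest being 4301 kb on chromosome 9, so the chromosome had gaps of ordinary length.

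Below the scale of windows, the peaks of chromosome 10 sat in tighter groups than those of most autosomes. Neighbouring summits were a median of 1241 bp apart, against 1729 bp on the other autosomes, and only chromosome 1 had closer spacing (1186 bp). Peaks less than 10 kb apart were joined into clusters. There were 1122 such clusters, and 185 of them had at least 10 peaks each. The 185 contained 3567 peaks, 58.6% of those on the chromosome, against 46.6% on the other autosomes together. Another 524 clusters held 2 to 9 peaks, and 413 peaks stood alone, which was 6.78% of the chromosome's peaks and the lowest such share of the 20 autosomes. Solitary peaks were weaker, with a median pileup of 16 and a median fold of 6.90. The 185 large clusters spanned 5.21 Mb in all, 4.63% of the chromosome, and their median span of 25.8 kb was close to the 25.04 kb of the others. Chromosome 10 therefore had more large clusters per Mb (1.64 against 0.661) rather than longer ones. Domains held 121 of the 185, and 58.9% of all cocaine peaks of the chromosome. Summit spacing and cluster size at a fixed 10-kb limit depend on the number of peaks per Mb, for which the chromosome was chosen. The part of density in these measures was not tested.

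The largest cluster held 59 peaks in 41.5 kb at 109964411 to 110005883. Its peaks covered 16.3% of the stretch and reached a pileup of 56, with a median fold of 10. It crosses the line between the last windows of the distal domain at 108000001. The next held 56 peaks over 74.2 kb at 56579234 to 56653388, the widest of all, with a highest pileup of 79. The most strongly covered of the 10 largest was 55940861 to 55969719, where 40 peaks in 28.9 kb covered 19.4% of the bases with a median pileup of 34.5 and a median fold of 12.1. The domain at 13000001 held 3 of the 10 largest, at 14245658 to 14299204 (44 peaks), 13939164 to 13989492 (43) and 13736697 to 13795997 (39). The second of these was weak for its size, with a median pileup of 15 and a median fold of 6.90. The domain at 55000001 held 4 of the 10, the others being 56237551 to 56286394 with 42 peaks and 57265901 to 57307847 with 41. The last 2 were 65507517 to 65552113, with 40 peaks of the longest median length (155.5 bp), and 94389368 to 94451632, with 40 peaks and the only one of the 10 outside a domain. A saline peak lay in 1 of these 10 clusters, the one at 57265901, which held 2, and in 14 of all 185.

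Peak strength on chromosome 10 was close to that of the other autosomes. All listed peaks passed the same cutoff of the caller, and median cocaine pileups of the other autosomes ran only from 18 to 21. The median cocaine pileup was 19 on chromosome 10 (quartiles 14 and 28) and 19 on the other autosomes (14 and 29). The median fold, 8.11, was the highest of the 20 autosomes, whose other medians ran from 7.00 to 7.88. With deep-input peaks left out of every chromosome the median fold of chromosome 10 stayed at 8.11 and ranked 3, the other medians running from 7.36 to 8.14. The fold rank thus moved with the share of deep-input peaks. Peaks had a median length of 107 bp, against 102 bp elsewhere, next to chromosome 1 with 108 bp.

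Within the chromosome, peaks in dense windows were slightly higher than the rest. In the 32 dense windows the median pileup was 20 (quartiles 14 and 29) and the median fold 8.28, and in the 69 windows between the limits the medians were 18 (13 and 26) and 7.44. The quartile ranges overlapped widely. Other autosomes had the same medians of pileup, 20 in dense and 18 in middle windows, with folds of 8.0 and 7.36. The 11 sparse windows held only 4 peaks.

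The 10 sites of highest fold were scattered, and most of these 10 lay outside the dense windows. The first, 37537434 to 37537588, reached 62 fragments and 28.6-fold over input, and it ranked 5 among all autosomal cocaine peaks. The next was 107539321 to 107539519, at 71 fragments and 26.5-fold. At 45296959 to 45297231 and 86604473 to 86604656 the pileup was 55 and the fold 25.8 in each. The remaining 6, with folds of 24.5 to 25.4, began at 83895923, 90389758, 101291368, 81650007, 88434584 and 45289747. Of the 10, 3 lay in dense windows, at 86604473, 90389758 and 88434584, while dense windows held 68.0% of the chromosome's cocaine peaks. None of the 10 overlapped a saline peak, which was the usual case, since 41 of the 6090 cocaine peaks of the chromosome (0.673%) did. Their input was low, at 1.0 to 1.46 times the genome-wide level. The sites at 45289747 and 45296959 are near neighbours, and 101291368 lies just beyond the 2.50-Mb empty stretch that ends at 101289082. Chromosome 10 held 13 of the 100 autosomal peaks of highest fold and 93 of the highest 1000, near its 8.90% share of the peaks.

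The sites of highest pileup were different ones, with deep input. The 10 highest pileups ran from 95 to 105, close to the ceiling of 108 that the caller can reach with 1 tag per position and strand. At 9 of them the input was 11.3 to 25.2 times the genome-wide level, and at the other, 86680258 to 86680622, it was 9.85 times. The first was 49699110 to 49699403, at 105 fragments but only 4.03-fold over input. The strongest of the 10 by fold was 86680258, at 96 fragments and 7.72-fold. Saline peaks overlapped 8 of these 10, and the exceptions were 86680258 and 13537868 to 13538080. High pileup and an overlap with saline thus went together with deep cocaine input on this chromosome, and the part of the input in either was not tested.

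The 49 saline peaks were few, low and mostly on ordinary input. Their pileups ran from 7 to 96 with a median of 11, the lowest of the 20 autosomes, and without the deep-input peaks the highest was 32. The other autosomes together had a median of 59 over all saline peaks and 13 over those of low background, where the median of chromosome 10 was again 11. The difference in the pooled medians therefore moved with the share of deep-input peaks. Input was under 3 times the genome-wide level at 43 of the 49, between 3 and 10 times at 3, and deeper at 3. The median saline fold was 5.54, the highest of the 20 autosomes, and 5.59 without deep-input peaks, when it ranked 6.

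Saline summits lay mostly in windows that were dense in the cocaine list. They occupied 31 of the 112 windows (27.7%), a larger share than on any other autosome (13.6% together). Of the 49, 36 lay in the 32 dense windows, 12 in the 69 middle windows and 1 in a sparse one. Dense windows thus held 73.5% of the saline peaks and 68.0% of the cocaine peaks in 28.6% of the length. Of the low-background saline peaks of chromosome 10, 76.1% lay in dense windows. On the other autosomes dense windows were only 9.26% of all windows. They held 53.9% of all saline peaks there, and 38.2% of those with low background. The shares of saline peaks are therefore not alike in the length they refer to. Domains held 29 of the 49 (59.2%), close to their 58.9% of the cocaine peaks of the chromosome. By position 33 saline peaks lay beyond the midpoint and 16 before it. A stretch of 19.2 Mb without a saline peak ran from 15811127 to 35040830 and took in the emptiest block of the cocaine list. Dense windows without a saline peak included those at 65000001 (195 cocaine summits), 90000001 (181), 14000001 (175) and 46000001 (140). The 5 windows with 3 saline summits began at 35000001, 63000001, 67000001, 105000001 and 109000001, and all were dense.

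Nearly every saline peak on chromosome 10 overlapped a cocaine peak. Over the whole saline list the share with an overlap of at least 1 bp was 79.7%, and on chromosome 10 it was 46 of 49 (93.9%, interval 83.5 to 97.9), which ranked 4 of 20. Among saline peaks without deep input it was 43 of 46 (93.5%, 82.5 to 97.8), the highest share of the 20, against 281 of 384 (73.2%, 68.5 to 77.4) on the other autosomes together. The other autosomes ranged from 35.7% to 91.3%. These shares leave out deep-input peaks of the saline list only, and 9 of the 43 met a deep-input cocaine peak. With both lists so filtered, the share on chromosome 10 was 34 of 46 (73.9%, 59.7 to 84.4), and no rank is given for it. Cocaine peaks covered 0.753% of chromosome 10 and 0.335% of the others, and the part of this coverage in the overlap was not tested. The overlaps were often partial, and only 18 of 49 saline peaks (36.7%) met a cocaine peak when each had to cover 50% of the other.

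The reverse share was small. Of the cocaine peaks of chromosome 10, 41 of 6090 overlapped a saline peak (0.673%, 0.497 to 0.912), against 2.51% of the whole cocaine list. Chromosome 10 ranked 18 of 20 by this share. Without deep-input cocaine peaks the share was 30 of 6077 (0.494%) and ranked 2, against 0.347% on the other autosomes. The order of chromosomes by this share therefore turned with the deep-input peaks, which were few on chromosome 10. With a reciprocal overlap of 50% the share of all cocaine peaks was 0.296%, and with edges within 1 kb it was 1.18%.

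At overlapping sites the cocaine peak was usually the longer and higher. The 46 pairs held 41 cocaine peaks, so some of these count more than once. Over the 46 pairs the cocaine peak was longer in 44, with a median length of 321.5 bp against 121 bp, and higher in pileup in 44. Pileups are not scaled for depth, and the cocaine pool was 1.15 times as deep. In the 32 pairs with input under 3 times the genome-wide level in both lists, saline pileups ran from 7 to 17 (median 10.5) and cocaine pileups from 10 to 50 (median 20.5). The ratio of pileups had a median of 1.73 and ran from 1.0 to 5.0. Summits lay within 50 bp of each other in 16 of these 32. Cocaine peaks of ordinary input with a saline partner were of common height for the chromosome, with a median pileup of 19.5 against 18 without a partner. They were longer, 298.5 bp against 104 bp, and on the other autosomes the lengths were 242 and 100 bp. An overlap rule of 1 bp favours long peaks, and its part in the difference was not tested.

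**Figure D4:**
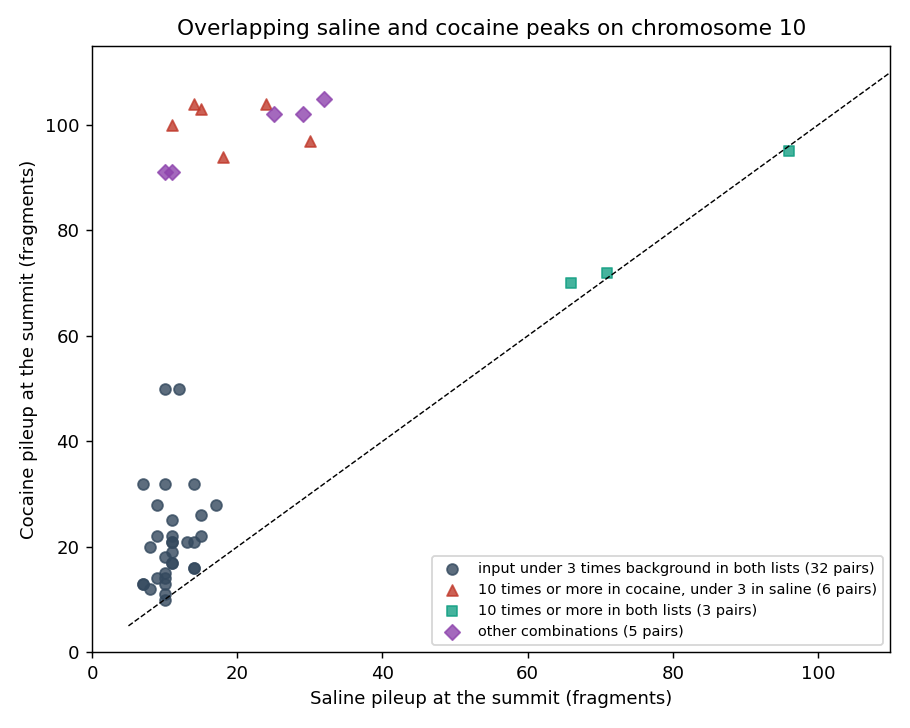
Pileup at the summit of the cocaine peak (y axis, fragments) against that of the overlapping saline peak (x axis), for the 46 pairs on chromosome 10, marked by the input level in each list. The dashed line marks equal pileup, unscaled for depth. The 32 pairs of ordinary input lie at or above the line at low pileup, the 3 pairs of deep input in both lists lie near it, and the 11 others have cocaine pileups of 91 to 105 with saline pileups of 32 or less.

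By cocaine fold, the first shared site was 75335100 to 75335508, at a cocaine pileup of 50 and 16.2-fold over input. It overlapped 2 saline peaks, the higher at pileup 12 and 6.11-fold. The site at 67762709 to 67763241 was 533 bp long and took in 3 saline peaks, the highest at pileup 14 and 7.55-fold, under a cocaine pileup of 32 and 15.2-fold. Such sites show 1 long cocaine peak where the saline list had several short ones. At 57290747 to 57291080 the pileups were 28 in cocaine and 17 in saline, with folds of 13.3 and 9.07. At 72544719 to 72544920 the cocaine pileup was also 28 and the saline pileup 9. The next 4, with cocaine folds of 10.6 to 12.0, began at 109278659, 105787559, 76542852 and 82026859. Dense windows held 8 of the 10 shared sites of highest cocaine fold, and 29 of all 41 shared cocaine peaks. The ninth, 55677651 to 55678041, had a cocaine pileup of 91 on an input of 6.57 times the genome-wide level, and a saline pileup of 10. The tenth, 13168197 to 13168496, had pileups of 22 and 9.

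Ranked by saline fold, the first 3 sites had deep cocaine input. These were 85073944 to 85074201 (saline pileup 30, fold 10.8), 40381730 to 40381882 (24 and 9.98) and 57275504 to 57275703 (18 and 9.57). The cocaine peaks there had pileups of 97, 104 and 94 and folds of 4.06, 4.68 and 6.86. The first saline site with ordinary input in both lists was 57290834 to 57291101, at pileup 17 and 9.07-fold. Next came 82026981 to 82027226 and 105787636 to 105787850, each at saline pileup 15 and 8.06-fold, with cocaine pileups of 22 and 26. The last 4, all at saline pileup 14 and 7.55-fold, began at 61576839, 67762911, 86776203 and 88913975. Of the 10, 9 lay in dense windows, as did 36 of all 49 saline peaks (73.5%). At 3 sites the input was deep in both lists, and their pileups were nearly equal. They were 15811096 to 15811299 (96 in saline, 95 in cocaine), 78149599 to 78149662 (71 and 72) and 44825111 to 44825315 (66 and 70). Their cocaine folds were low, 2.87 to 3.78.

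Only 3 saline peaks on chromosome 10 had no cocaine peak at the same place, and all were low. A neighbouring pair lay at 63405456 to 63405507 (pileup 11, fold 6.04) and 63405607 to 63405695 (pileup 9, fold 5.04), inside the domain at 61000001. The third, 8816480 to 8816684, reached pileup 10 and 5.54-fold and lay in the quiet first 10 Mb. The nearest cocaine summit was between 12854 and 324893 bp away. Input at all 3 was at 1.0 times the genome-wide level, the lowest value the caller uses.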

How the data were processed

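INO80 ChIP and input libraries were grouped by treatment from their titles. Per the file headers, the authors called peaks with MACS (2.0.10.20131216) at a q cutoff of 0.05, a genome size of 2e+09 and 1 tag per position. Reads were placed on rn6, as the submitters' processing notes list it, by an aligner not given in the sources used here. Each deposited pileup is a signal, the ChIP fragments at the summit, unscaled. The deposited fold is a ratio of pileup plus 1 to scaled local input plus 1. The deposited −log10 p is the caller's Poisson value, recomputed here to within 6.29e-05. The −log10 q was not used.

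Solving the fold for its denominator gave the local input, expressed as multiples of the genome-wide level, 1.17 fragments in cocaine and 0.986 in saline. Dividing it by the depth scaling (0.429 and 0.376) gave unscaled input fragments. The caller uses the genome-wide level where local input is lower, so 1.0 times that level is a floor. Chromosome length was the last peak end of either list. A last part window was left out, with 2 cocaine summits on chromosome 10. Shares carry Wilson 95% intervals. With 1 list per treatment no test was possible, and none was run.

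Regions were named by rule in place of genes: the 10 densest windows, all domains, the 10 longest gaps, the 10 largest clusters, and the 10 leading peaks by fold or pileup in each list and among shared and saline-alone peaks, ties by position. Dense windows outside domains, long peaks and pairs by input class were picked after seeing values. The chromosome, limits and lists were chosen with earlier results of these data known. Alternatives were joined peaks, low-background peaks, upper-fold peaks, other windows and percentile limits, a −log10 p of 10, and other overlap rules. The functions were tested on simulated data. Python 3.11.15, numpy 2.4.6, pandas 2.3.3, scipy 1.17.1 and matplotlib 3.10.9 were used.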

Additional observations from a re-analysis of the deposited data

Results flagged for a closer look

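Input DNA served only as background, and at 6 sites of chromosome 10 the cocaine input was far above the saline input. The pools were of nearly equal depth, and each input was read at the summit of its own list's peak. These are the saline peaks with input under 3 times the genome-wide level that overlap a cocaine peak with 10 times or more. Unscaled local input at 85073944 was 54 fragments in cocaine and 5 in saline. At 40381730 it was 50 and 4, at 109519968 it was 49 and 5, and at 109518870 it was 42 and 7. At 13537614 the values were 42 and 3, and at 57275504 they were 30 and 2.62. The value of 2.62 is the saline genome-wide level, the lowest the caller uses. The cocaine pileups at these sites ran from 94 to 104 and the saline pileups from 11 to 30. Part of each gap follows from how the sites were picked. The cocaine and saline summits were 87, 86 and 77 bp apart at 13537614, 109518870 and 109519968. These distances exceed the fragment lengths of 54 bp in cocaine and 52 bp in saline, so the inputs there belong to different bases. At 85073944, 40381730 and 57275504 the summits were 2, 3 and 27 bp apart. The sites at 109518870 and 109519968 are neighbours and may not be independent. The source of the input difference was not tested.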

How the results depend on the processing

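No replicate could be left out, since each list pools its samples. No paired analysis was possible because each treatment has 1 pooled list and no test was run. Of 39 alternatives over 9 results, 22 stayed within the counting interval, or within 1.5 times the count, and 17 moved. Cocaine density fell to 34.9 per Mb with joined peaks and to 29.6 with the upper-fold part of the list, and chromosome 10 ranked first in each. Saline density rank was 13 over all peaks, 11 joined, 7 by upper fold and 1 without deep input. Smaller or larger windows change counts by construction: 0.5-Mb windows gave 61 dense and 33 sparse windows, and 2-Mb windows gave 18 and 3, with 4 domains. The dense share stayed between 27.1% and 32.1% in these, against 9.02% to 9.34% elsewhere. A shift of 0.5 Mb gave 7 sparse windows and 8 domains. A limit at the 80th percentile, added after seeing the data, gave 54 dense windows and 13 domains, and the 95th gave 22 and 6. The overlapped saline share was 36.7% with reciprocal overlap, 100% (16 of 16) at −log10 p of 10 or more, and 73.9% between low-background peaks. The overlapped cocaine share was 0.296% with reciprocal overlap, 0.338% at −log10 p of 10 or more, 0.494% between low-background peaks and 1.18% with edges within 1 kb. The median cocaine pileup was 26 in the upper-fold part, which selects high peaks. The 49 saline peaks limit every saline share, as their intervals show.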

Other observations

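The longest cocaine peaks of chromosome 10 were far above its median of 107 bp. Those named here overlapped no saline peak, as was so for most cocaine peaks of the chromosome, of which 0.673% overlapped one. The first, 13158081 to 13159966, spanned 1886 bp at pileup 56 and 18.1-fold, inside the proximal domain. The next were 94125518 to 94127101 (1584 bp, pileup 40), 84688341 to 84689884 (1544 bp, pileup 49), 82801220 to 82802644 (1425 bp, pileup 57) and 61456699 to 61458089 (1391 bp, pileup 53). Their input was 1.82 to 3.28 times the genome-wide level, above the median of 1.09 at cocaine peaks of this chromosome.

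Among the 46 overlapping pairs, some distant sites had the same lengths and pileups, which was noticed after the values were seen. Input at these sites was at the floor of 1.0 times the genome-wide level in both lists, so the fold follows from the pileup. The saline sites at 35040784 and 37134842 were each 152 bp long at pileup 11 and 6.04-fold, inside cocaine peaks of 338 bp at pileup 21 and 10.1-fold, with summits 69 bp apart at both. Those at 105182928 and 105259835 were each 52 bp long at pileup 11 and 6.04-fold, inside cocaine peaks of 173 bp at pileup 17 and 8.28-fold, with summits 73 and 72 bp apart. The length of 52 bp is also the saline fragment length and recurs at other saline peaks of the chromosome. Whether the sites with the same values share sequence was not tested, and they may not count as separate sites.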
